A study of Homo sapiens with 12 samples.

Results

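MDA-MB468 cells, an established line of triple-negative breast cancer (TNBC), were profiled by RNA-seq after 24 h with atorvastatin (ATV) at 1.25 μM and after 24 h with vehicle. These are 2 of the 12 samples of the series, 1 library each, and the ATV library was compared with the vehicle library of the same table. The comparison takes every gene that reached 1 FPKM in vehicle, with ATV or in both, which left 11711 of the 18217 genes listed. FPKM counts the sequenced fragments of a gene per length of its transcript and per depth of the library, so that levels can be set beside each other between genes. The study treated MDA-MB468 and a second TNBC line, HCC70, with ATV, with the nuclear receptor antagonist XY018, or with both, and asked how the antagonist bears on the response of cholesterol-biosynthesis genes to a statin. Per the labels, all MDA-MB468 cells grew in RPMI with fetal bovine serum and insulin, whereas the methods of the study name another basal medium, DMEM, for this line. The other MDA-MB468 libraries of the table received XY018 at 1.25 μM, XY018 at 2.5 μM, or XY018 and ATV at 1.25 μM each. Nothing in the sources states how many cultures stand behind a library, and with 1 library per condition no difference below could be set against a spread between replicates, and none carries a p-value.

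ATV is a statin, a class of compounds that block an early step of the mevalonate pathway. Mevalonate supplies farnesyl and geranylgeranyl groups that anchor small GTPases to membranes, and, through squalene and lanosterol, cholesterol. When sterols are low in the endoplasmic reticulum, the SCAP protein escorts the transcription factor SREBP2 (gene SREBF2) to the Golgi, where it is cleaved and freed to activate the genes of the pathway and of lipoprotein uptake. SREBP sites in such promoters often lie beside a box bound by the factor NF-Y, whose core letters are ATTGG, or CCAAT on the other strand. Liver X receptors work in the opposite sense, since they are activated by oxysterols and raise genes of cholesterol export.

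Promoter stretches of 6 cholesterol-biosynthesis genes and of SREBF2 are printed below because the members of the pathway moved together and because PMVK and GGPS1, which stood apart, held no ATTGG. The first 4 are from genes higher with ATV. Each stretch is the RefSeq sequence of the 200 bases before the start of the gene, from 5′ to 3′ on the strand of the gene, and capitals mark each ATTGG or CCAAT and, in SREBF2, also a TCACNCCAC, core letters of the sterol regulatory element. These genes were chosen for printing after their values were known. IDI1 and CYP51A1, which are not printed, also held no ATTGG and were higher with ATV.
HMGCS1 promoter, GRCh38.p14 chr5:43313413-43313612, minus strand: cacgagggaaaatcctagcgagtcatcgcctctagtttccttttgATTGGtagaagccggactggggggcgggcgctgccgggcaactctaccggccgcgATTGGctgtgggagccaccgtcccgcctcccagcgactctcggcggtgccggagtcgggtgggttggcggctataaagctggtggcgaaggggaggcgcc
TM7SF2 promoter, GRCh38.p14 chr11:65111672-65111871, plus strand: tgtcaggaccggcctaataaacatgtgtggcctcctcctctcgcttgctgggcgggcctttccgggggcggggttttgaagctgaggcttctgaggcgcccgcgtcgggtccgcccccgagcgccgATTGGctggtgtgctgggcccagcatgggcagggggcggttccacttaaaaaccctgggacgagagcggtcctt
MVD promoter, GRCh38.p14 chr16:88663092-88663291, minus strand: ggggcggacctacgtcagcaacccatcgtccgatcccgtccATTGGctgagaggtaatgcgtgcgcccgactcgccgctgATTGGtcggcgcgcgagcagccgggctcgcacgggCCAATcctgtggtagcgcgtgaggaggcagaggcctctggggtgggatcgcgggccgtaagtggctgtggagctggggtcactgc
MSMO1 promoter, GRCh38.p14 chr4:165327469-165327668, plus strand: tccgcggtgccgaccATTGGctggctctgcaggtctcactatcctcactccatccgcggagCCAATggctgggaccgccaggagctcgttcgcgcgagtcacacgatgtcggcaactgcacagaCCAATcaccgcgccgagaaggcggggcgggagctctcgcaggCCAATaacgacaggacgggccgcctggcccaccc
PMVK promoter, GRCh38.p14 chr1:154936720-154936919, minus strand: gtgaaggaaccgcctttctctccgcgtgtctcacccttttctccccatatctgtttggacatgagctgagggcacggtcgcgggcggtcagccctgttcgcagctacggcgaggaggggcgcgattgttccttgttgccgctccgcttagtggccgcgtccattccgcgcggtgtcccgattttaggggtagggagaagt
GGPS1 promoter, GRCh38.p14 chr1:235327016-235327215, plus strand: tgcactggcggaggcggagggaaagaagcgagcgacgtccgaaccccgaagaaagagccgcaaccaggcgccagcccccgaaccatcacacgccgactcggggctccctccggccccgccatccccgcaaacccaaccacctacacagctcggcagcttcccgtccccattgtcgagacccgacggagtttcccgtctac
SREBF2 promoter, GRCh38.p14 chr22:41832905-41833104, plus strand: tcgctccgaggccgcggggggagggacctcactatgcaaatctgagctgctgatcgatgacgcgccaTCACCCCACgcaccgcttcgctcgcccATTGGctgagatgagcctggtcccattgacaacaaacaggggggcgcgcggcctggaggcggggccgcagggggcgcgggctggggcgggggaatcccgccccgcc

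The letters were searched on both strands from 250 bases before to 50 after the start, and ATTGG and CCAAT are the same match read on opposite strands. Of the 21 cholesterol-biosynthesis genes, 16 had a RefSeq promoter entry, and 12 of these 16 (75%) held at least 1 ATTGG. The share was 37.2% of the 9624 promoters among all genes compared, and 37.6% of the 7079 promoters of genes at 5 FPKM or above with ATV. At least 2 matches were present in 9 of the 16 (56.25%), against 14.1% of all promoters. The 4 without a match were PMVK, IDI1, GGPS1 and CYP51A1, and IDI1 and CYP51A1 were higher with ATV all the same. Of the 44 promoters of genes higher with ATV and at 5 FPKM or above, 30 (68.2%) held ATTGG. The 12 cholesterol-biosynthesis genes with a match are among these 30, so this share overlaps the one above. Without the limit at 5 FPKM the share was 48 of 115 (41.7%) for genes higher with ATV and 26 of 72 (36.1%) for genes lower with ATV, both near that of all promoters. TCACNCCAC was in none of the 16 and in 1.09% of all promoters, the shorter CACCCCAC, which overlaps it, was also in none of the 16 and in 2.52% of all, and the SP1 box GGGCGG was in 14 of 16 (87.5%) and in 71.2% of all. A match of letters is a description of the sequence and not a mapped binding site. ACAT2, FDFT1 and SQLE were among those without an entry.

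The depth of both libraries was close, at an estimated 20340000 fragments for vehicle and 20420000 for ATV, and 11579 and 11596 genes reached 1 FPKM. Depth was estimated from the spacing of low FPKM values, since no counts are given, and is approximate. The 10 highest genes took 6.72% of the summed FPKM in vehicle and 6.84% with ATV. All 8 epithelial markers were at 1 FPKM or above, and EGFR, which is amplified in MDA-MB468, stood at 944 FPKM in vehicle and 891 with ATV. The estrogen receptor ESR1 (0.48 and 0.59 FPKM) and PGR (listed at 0 in both) were under 1 FPKM, whereas ERBB2 was present at 25.6 and 28.4 FPKM. Of markers of other cell types, 3 of 5 leukocyte, 3 of 4 endothelial and 5 of 6 fibroblast genes were under 1 FPKM in both libraries. The leukocyte markers above it were CD14 (17.9 and 15.8 FPKM) and CD68 (4.42 and 3.83 FPKM). KDR (2.22 and 2.43 FPKM) and COL1A1 (4.96 and 5.26 FPKM) were the endothelial and fibroblast ones. The summed levels of the lists moved little, from 22.9 to 20.2, from 2.46 to 2.71 and from 5.92 to 6.15 FPKM.

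With ATV, 160 of 11711 genes (1.37%) were higher by at least 1.5-fold and 94 (0.803%) were lower. Changes are log2 ratios of ATV to vehicle FPKM after 0.1 was added to both, on which scale 1.5-fold is 0.585. The median over all genes was -0.01 and the SD 0.22, and 52.2% of genes lay below 0. Most of the calls were of weakly expressed genes: 102 of the 160 higher genes stayed under 5 FPKM with ATV, and 73 of the 94 lower genes were under 5 FPKM in vehicle. Among the 3985 genes at 20 FPKM or above, 33 were higher and 8 lower, and 17 of those 33 were cholesterol-biosynthesis genes. A 95% counting interval, exact Clopper-Pearson on the fragments that FPKM, length and depth imply, left out 0 for all 58 higher genes at 5 FPKM or above and for all 21 such lower genes. Over all 11586 genes with an interval it lay above 0 for 13.3% and below 0 for 14.9%, and over the 3960 of these at 20 FPKM or above, where intervals are narrow, for 17.4% and 22.9%. The interval covers counting error only and leaves out differences between cultures and library preparations, and in bulk RNA a change in the share of cells that express a gene and a change in the RNA per cell cannot be told apart.

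**Figure D1:**
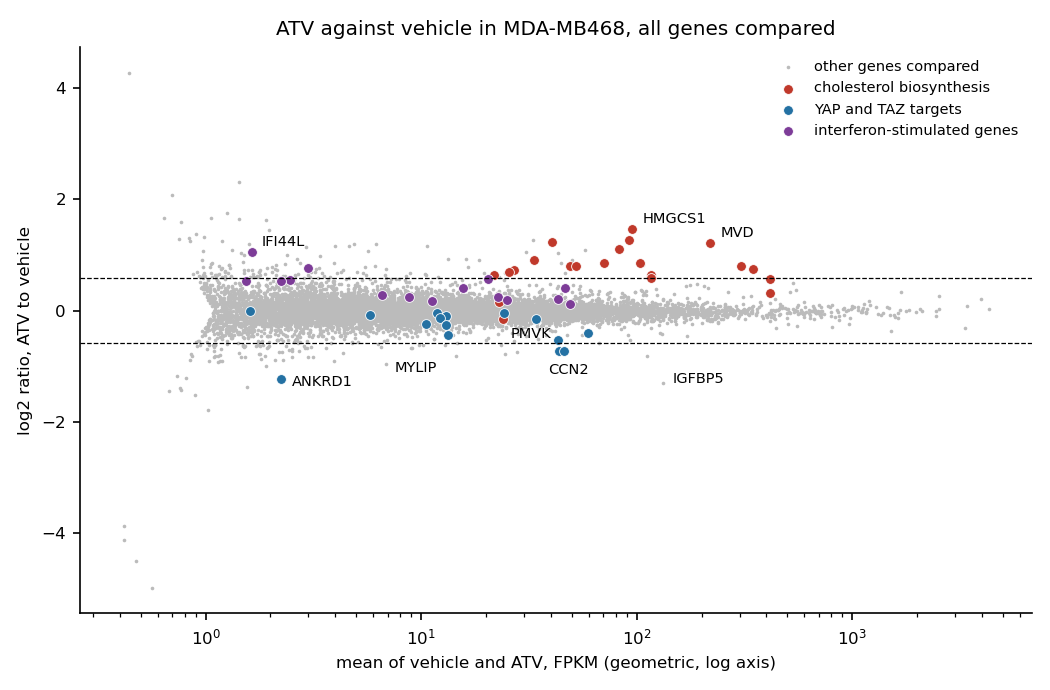
Log2 ratio of ATV to vehicle (vertical axis) against the geometric mean FPKM of both libraries (horizontal log axis) for the 11711 genes compared, with dashed lines at 1.5-fold. Cholesterol-biosynthesis genes make up 17 of the 33 higher genes at 20 FPKM or above, with HMGCS1 at 1.47. At high and low levels, the YAP and TAZ targets compared lie below 0 and the interferon-stimulated genes above 0. The widest ratios belong to genes near 1 FPKM.

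Cholesterol-biosynthesis genes were the main group at a higher level with ATV. Of the 21 enzymes from acetyl-CoA to cholesterol, 17 were higher by at least 1.5-fold and none was lower, with a median log2 ratio of 0.80 beside -0.01 for all genes. The counting interval was above 0 for 20 of the 21, beside 17.4% of all genes at 20 FPKM or above. Summed over the 21, the level went from 2078 FPKM to 3477 FPKM, a ratio of 1.67.

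In the mevalonate and isoprenoid branch, 7 of 9 genes were higher. HMGCS1, which makes HMG-CoA, went from 57.1 FPKM in vehicle to 158 FPKM with ATV, and its log2 ratio of 1.47 (95% counting interval 1.43 to 1.51) was the highest of the 21. ACAT2, the cytosolic thiolase that starts the pathway, went from 59.7 to 143 FPKM, a log2 ratio of 1.26. Both act at the start of the pathway, and both differed by more than 2-fold. MVD, which decarboxylates mevalonate diphosphate, went from 144 to 334 FPKM, a log2 ratio of 1.21. The kinase before it differed from its neighbours: PMVK was at 25.1 FPKM in vehicle and 22.5 FPKM with ATV, a log2 ratio of -0.16 whose interval of -0.35 to 0.03 holds 0. MVK, the first kinase of the branch, was higher at 32.3 against 20.1 FPKM (log2 ratio 0.68). IDI1, the isomerase of isopentenyl diphosphate, went from 37.2 to 64.7 FPKM, and FDPS, the farnesyl diphosphate synthase, from 231 to 403 FPKM, both with a log2 ratio of 0.80. FDPS has pseudogenes that can share its reads, which makes its value less certain. GGPS1, which leaves the sterol route to make geranylgeranyl diphosphate, was at 21.7 and 24.3 FPKM, a log2 ratio of 0.16 that did not reach the threshold.

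From squalene to lanosterol, SQLE and LSS were past the threshold and FDFT1 was just short of it. SQLE, squalene epoxidase and a rate-limiting enzyme, went from 76.6 to 139 FPKM, a log2 ratio of 0.86. LSS, which closes the rings to lanosterol, went from 56.6 to 122 FPKM, a log2 ratio of 1.10. FDFT1, the squalene synthase, was among the most abundant of the pathway at 342 FPKM in vehicle and reached 505 FPKM, a log2 ratio of 0.56.

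After lanosterol, 8 of 9 genes were higher, with a median log2 ratio of 0.72. TM7SF2, a sterol reductase, had the largest ratio of this stretch, from 26.3 to 61.7 FPKM (log2 ratio 1.23, interval 1.11 to 1.35). MSMO1, which oxidises the methyl groups at carbon 4, went from 52.7 to 94.9 FPKM (0.85), and CYP51A1, the lanosterol demethylase, from 39.8 to 69.2 FPKM (0.80). DHCR7, the last enzyme of one branch, went from 266 to 448 FPKM (0.75) and SC5D, a desaturase, from 20.8 to 34.4 FPKM (0.72). HSD17B7 (17.4 to 27.2 FPKM, 0.64, with a near copy that can share its reads), the isomerase EBP (93.4 to 145 FPKM, 0.63) and NSDHL (95.2 to 143 FPKM, 0.59) were closer to the threshold, and NSDHL was the last of the 17 to pass it.

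**Figure D2:**
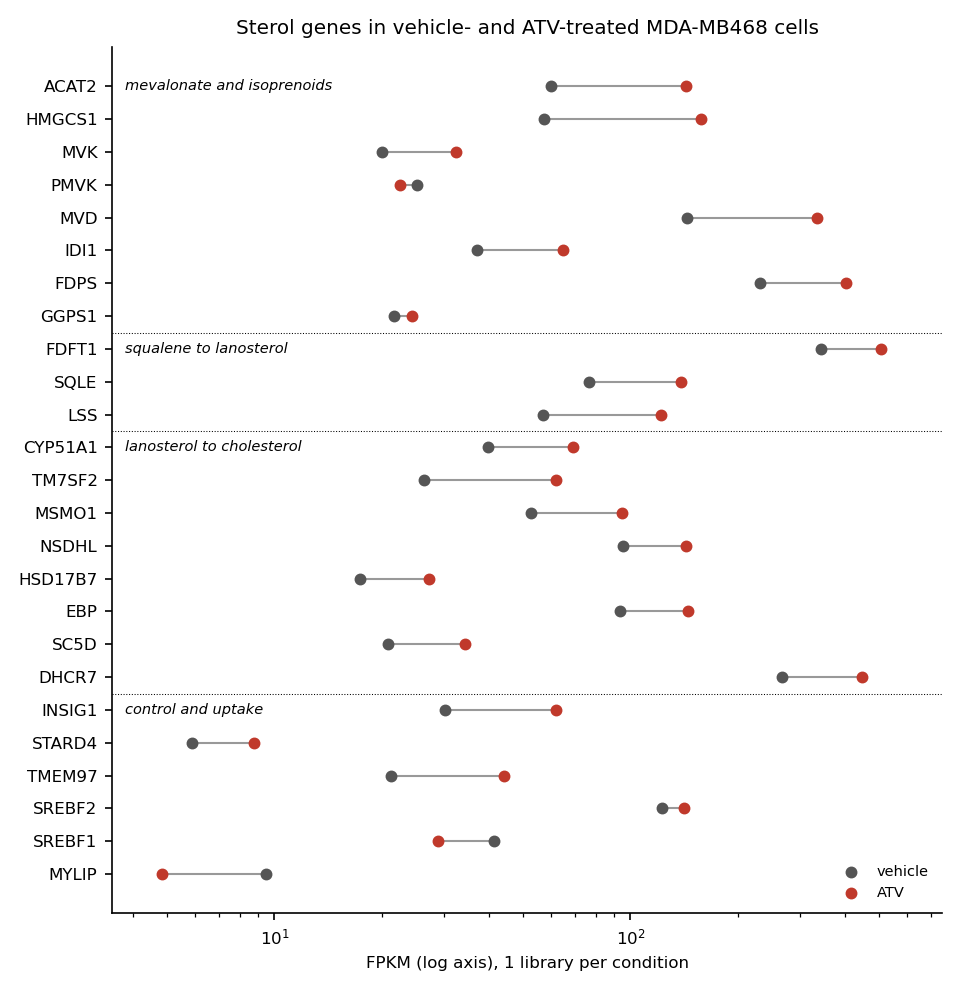
FPKM on a log axis in vehicle (grey) and with ATV (red) for 19 cholesterol-biosynthesis genes in pathway order and 6 genes of sterol control and uptake, 1 library per condition. Of the 19, PMVK alone has its ATV point to the left of vehicle, and SREBF1 and MYLIP do so in the lowest section.

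The regulators of the pathway moved less than its enzymes. Of 7 SREBP factors and sterol sensors, INSIG1 alone was past the threshold, and the list's median was 0.00. INSIG1, the retention factor of SCAP and itself a target of SREBP, went from 30.1 to 61.8 FPKM, a log2 ratio of 1.04. SREBF2 was at 123 FPKM in vehicle and 141 FPKM with ATV (log2 ratio 0.20). SREBF1, the paralogue tied to fatty acid synthesis, was at a lower level with ATV, 28.9 against 41.4 FPKM, a log2 ratio of -0.52 that did not reach the threshold while its interval of -0.59 to -0.45 was below 0. SCAP was level at 26.8 and 26.9 FPKM.

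Of 15 genes of lipoprotein uptake and sterol trafficking, 2 were higher and 1 lower, with a median of 0.22. TMEM97, a sterol-regulated membrane protein, went from 21.2 to 44.2 FPKM (1.06), and STARD4, a carrier of cholesterol, from 5.85 to 8.75 FPKM, a log2 ratio of 0.57 just short of the threshold. MYLIP, a ubiquitin ligase of lipoprotein receptors and a known liver X receptor target (GRCh37 chr6:16129317-16148479), was lower, at 4.84 FPKM with ATV against 9.50 FPKM in vehicle, a log2 ratio of -0.96 (interval -1.18 to -0.77).

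Genes listed as SREBP2-associated outside the pathway were higher in most cases: 7 of the 12 genes compared, with a median log2 ratio of 0.64. This list shares TMEM97 and STARD4 with the uptake genes and FADS1 and FADS2 with the fatty acid genes. PNPLA3, a lipid droplet protein, went from 3.11 to 7.28 FPKM (1.20), and LPIN1, a phosphatidate phosphatase, from 9.54 to 18.2 FPKM (0.93). ACSS2, which makes acetyl-CoA from acetate, went from 80.8 to 142 FPKM (0.81) and AACS, which activates acetoacetate, from 15.3 to 24.6 FPKM (0.68). Fatty acid genes followed only in part, with 2 of 19 past the threshold and a median of 0.23. These were ELOVL6, an elongase, from 2.98 to 6.80 FPKM (1.16), and ACLY, which makes cytosolic acetyl-CoA from citrate, from 97.7 to 148 FPKM (0.59).

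On the liver X receptor side, 2 of 6 genes compared were lower and none was higher, with a median of 0.03. These were MYLIP and ABCG1, a cholesterol exporter, which was at 1.14 FPKM in vehicle and 0.37 FPKM with ATV, a log2 ratio of -1.40 from an estimated 67 and 22 fragments. ABCA1, the other exporter, was under 1 FPKM in both libraries (0.24 and 0.06 FPKM) and so was not compared. The receptor genes NR1H2 (41.8 and 46.5 FPKM) and NR1H3 (18.4 FPKM in both) stayed within the threshold.

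Genes that act on isoprenoids downstream of the pathway showed no call. None of 16 prenyl transferases and users of isoprenoids (median -0.04, largest value 0.24 for PDSS1, which makes the side chain of ubiquinone) and none of 21 small GTPases (median -0.03, largest 0.46 for RHOV) was past the threshold. RHOB, a GTPase that carries either isoprenoid, was at 7.39 and 8.59 FPKM, a log2 ratio of 0.21. None of 10 Krüppel-like factors was past it either (median 0.21, largest 0.30 for KLF11), and KLF2 was under 1 FPKM in both libraries (0.91 and 0.75 FPKM).

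YAP and TAZ targets, genes of the Hippo pathway that respond to actin tension, lay on the lower side. Of 15 compared, 3 were lower by at least 1.5-fold (0.803% of all genes) and none higher, and all 15 had a log2 ratio below 0 (52.2% of all genes). The counting interval was below 0 for 10 (14.9% of all genes), and the median was -0.25. CCN2, a secreted matricellular protein (GRCh37 chr6:132269316-132272512), was at 59.4 FPKM in vehicle and 35.8 FPKM with ATV, a log2 ratio of -0.73. NT5E, the ectonucleotidase CD73, was at 56.1 and 33.8 FPKM (-0.73), and ANKRD1, a nuclear cofactor, at 3.34 and 1.36 FPKM (-1.24). CCN1, a paralogue of CCN2, was at 51.4 and 35.8 FPKM, a log2 ratio of -0.52 that did not reach the threshold. Of 14 SRF and actin genes none was past the threshold, with a median of -0.13 and an interval below 0 for 10, a share to be set beside 22.9% of all genes at 20 FPKM or above, since most of this list is abundant. ACTB, cytoplasmic actin, was at 3718 FPKM in vehicle and 2984 with ATV (-0.32), and ACTG1 at 1713 and 1326 FPKM (-0.37). Both actins have many pseudogenes that can share reads.

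Interferon-stimulated genes lay on the higher side. Of 15 compared, 2 were past the threshold (1.37% of all genes) and all 15 had a log2 ratio above 0 (47.3% of all genes). The interval was above 0 for 13 (13.3% of all genes), and the median was 0.40. IFI44L went from 1.04 to 2.25 FPKM (1.04) and IFIT2, an RNA-binding effector, from 2.18 to 3.77 FPKM (0.76). Cell cycle and replication genes were not called in any of 23 cases, with a median of -0.11 and 21 below 0, beside 52.2% of all genes. The largest was CCNE2, a cyclin of S-phase entry, at 9.52 and 7.07 FPKM (-0.42).

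Single members were past the threshold in 3 further lists. CCL20, a chemokine and the only one of 13 NF-κB targets and chemokines, was at 3.87 and 2.14 FPKM (-0.83). ADM, adrenomedullin and 1 of 11 hypoxia-induced genes, was at 8.01 and 5.08 FPKM (-0.65). DUSP1, a MAPK phosphatase and 1 of 17 MAPK feedback genes, was at 3.47 and 2.19 FPKM (-0.64). None was past it among 14 genes of the integrated stress response (largest 0.42, ATF3), 13 endoplasmic reticulum chaperones (-0.22, HSPA5), 12 G1 regulators (0.40, CDKN1C), 14 genes of the BCL2 family and death receptors (0.48, BBC3), 11 selenoproteins (-0.17, TXNRD1) and 9 lipid nuclear receptors (-0.50, PPARG). The CDK inhibitor CDKN1A was at 11.4 and 13.3 FPKM (0.22). In all, 12 of the 25 lists held no call.

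**Figure D3:**
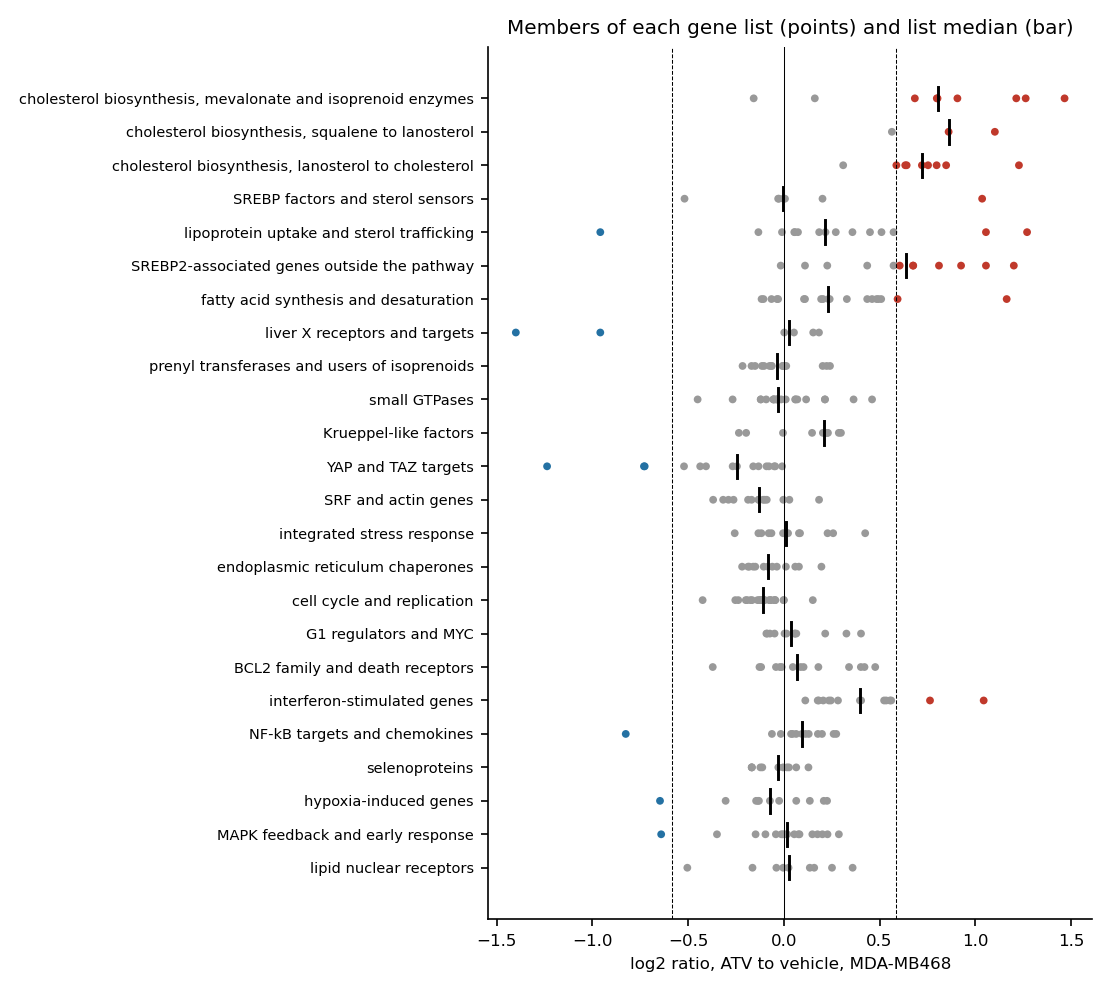
Log2 ratio of ATV to vehicle for each member compared (points) and the median (black bar) of 24 gene lists, with dashed lines at 1.5-fold and calls in red (higher) or blue (lower). The 3 cholesterol lists and the SREBP2-associated list have medians of 0.64 or more, and no other list passes 0.40.

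Outside the lists, 5 genes were among the 15 with the highest ratios at 5 FPKM or above. TF, which encodes transferrin, went from 3.98 to 9.22 FPKM (1.19), and TUBB2B, a tubulin with close paralogues, from 7.01 to 15.9 FPKM (1.17). FGFBP1, a carrier of fibroblast growth factors, went from 39.2 to 83.3 FPKM (1.09) and LIPG, endothelial lipase, from 3.79 to 8.08 FPKM (1.07). LBHD1, which overlaps a neighbouring gene and is therefore uncertain, went from 2.57 to 5.87 FPKM (1.16). Of the 58 higher genes at 5 FPKM or above, 28 belonged to the cholesterol, SREBP, uptake or fatty acid lists.

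Among genes lower with ATV, IGFBP5, a secreted binding protein of insulin-like growth factors (GRCh37 chr2:217536828-217560272), had the lowest ratio at 5 FPKM or above. It stood at 207 FPKM in vehicle and 83.8 FPKM with ATV, a log2 ratio of -1.31 (interval -1.34 to -1.27) from an estimated 25951 and 10534 fragments. S100A7, psoriasin, with close family copies, was at 148 and 83.6 FPKM (-0.82), and EDN1, endothelin 1, at 19.2 and 10.9 FPKM (-0.81). SOSTDC1, an antagonist of BMP and WNT, was at 31.9 and 18.5 FPKM (-0.79), and TIMP3, an inhibitor of metalloproteinases, at 35.9 and 21.4 FPKM (-0.75). ALPP, placental alkaline phosphatase, was at 5.33 and 2.79 FPKM (-0.91). The remaining ones were MDP1 (-0.76, with overlapping transcripts), the carboxypeptidase CPA4 (-0.67), the matrix protein EFEMP1 (-0.66), the keratin KRT4 (-0.63) and STAC2 (-0.62).

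In HCC70 cells the same dose and time gave 261 of 11742 genes higher (2.22%) and 155 lower (1.32%), in a table of its own and at a lower depth of 9640000 and 10060000 fragments. Over the 21 cholesterol-biosynthesis genes the median ratio stood at 0.26 in HCC70 against 0.80 in MDA-MB468, and 3 of 21 were past the threshold, MVD (0.77), LSS (0.70) and HSD17B7 (0.59). Still, 20 of the 21 had a ratio above 0 in HCC70, beside 48.8% of all genes compared there. The counting interval was above 0 for 17 of the 21, and its share over all genes was not computed for HCC70. The ratio was larger in MDA-MB468 for 20 of the 21, by a median of 0.48. The difference was largest for ACAT2, at 49.0 and 52.4 FPKM in HCC70 (0.10) where it was at 59.7 and 143 FPKM in MDA-MB468. The difference between the lines was not tested, since each rests on 1 library per condition. INSIG1 (32.3 to 44.8 FPKM, 0.47, interval 0.35 to 0.60) was above 0 but not past the threshold in HCC70, and MYLIP was at 8.36 and 5.81 FPKM (-0.52). SREBF1 was at 37.4 and 41.9 FPKM in HCC70 (0.16), and RHOB went from 1.15 to 3.58 FPKM (1.56). IGFBP5 (0.10 and 0.11 FPKM) and CCN2 (0.13 FPKM in both) were hardly present in HCC70. Over all genes, 15 of the 106 MDA-MB468 higher genes that were compared in HCC70 were also called higher there and 5 were called lower, so that the shared calls made up 9.38% of the 160 and 5.75% of the 261. A ratio above 0 in HCC70 was seen for 79 of the 106, and for 43 of the 51 at 5 FPKM or above, beside 48.8% of all genes compared in HCC70. For lower genes, 7 of 64 were also lower in HCC70 and 7 were higher, which is 7.45% of the 94 and 4.52% of the 155, and 38 of the 64 lay below 0, among them 14 of the 15 at 5 FPKM or above, beside 50.9% of all genes.

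A further pair of MDA-MB468 libraries differs by ATV, namely XY018 with ATV against XY018 alone at 1.25 μM, and shares no library with the first pair. Here 248 of 11793 genes (2.1%) were higher and 208 (1.76%) lower. Of the 21 cholesterol-biosynthesis genes none was higher and 9 were lower. All 21 ratios were below 0, beside 53.7% of all genes in this pair, and the median was -0.57 where it was 0.80 for ATV alone. HMGCS1 was at 23.5 FPKM with XY018 and 15.8 FPKM with both (-0.57), and SQLE at 45.4 and 24.3 FPKM (-0.90). INSIG1 was at 17.5 and 8.68 FPKM (-1.0). Against the background of XY018, then, the 17 members that were higher with ATV alone had lower values with ATV added, and each of them was below its vehicle level in both libraries. With ATV added to XY018 in HCC70, the median of the 21 was -0.18 and none was past the threshold. There 17 of the 21 lay below 0, beside 50.6% of all genes.

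**Figure D4:**
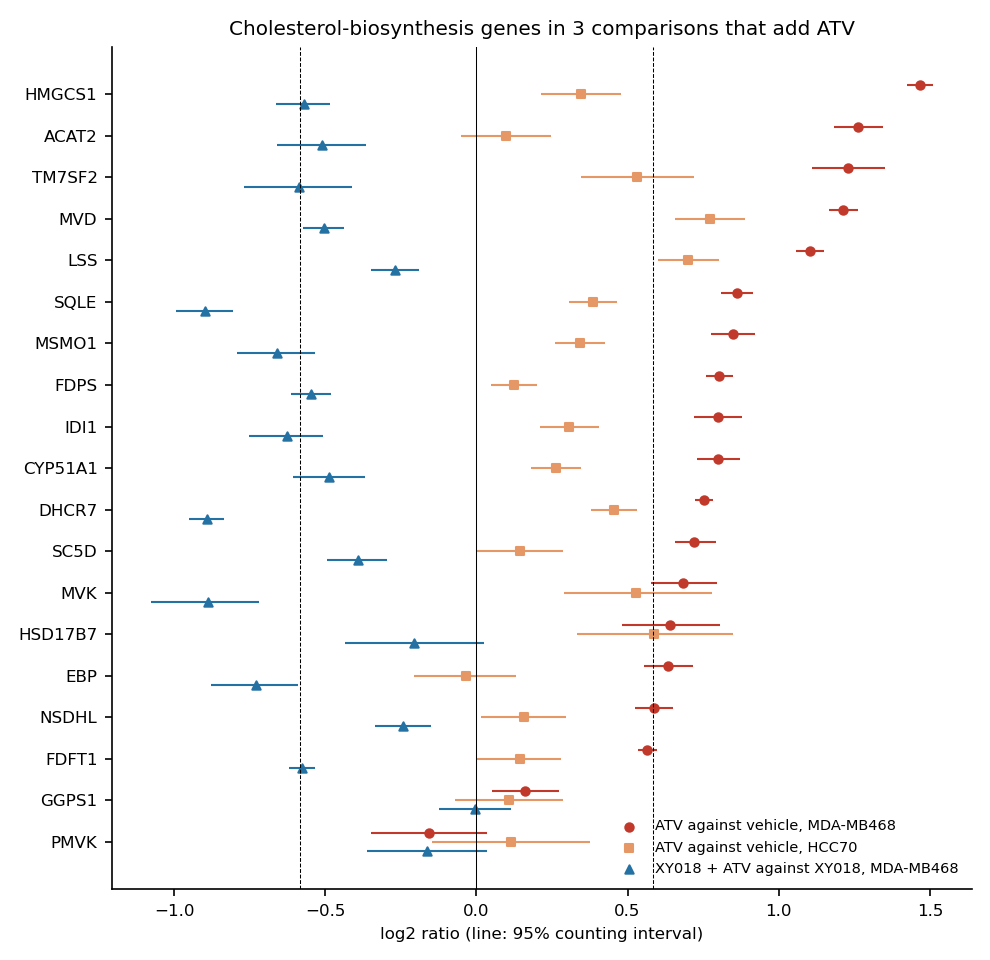
Log2 ratios with 95% counting intervals of 19 cholesterol-biosynthesis genes for ATV in MDA-MB468 (red circles), ATV in HCC70 (orange squares) and ATV added to XY018 in MDA-MB468 (blue triangles), with dashed lines at 1.5-fold. The median over all 21 is 0.80 in the first, 0.26 in the second and -0.57 in the third.

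The medians of the SREBP2-associated, fatty acid and uptake lists also lay on the other side when ATV was added to XY018, at -0.40, -0.27 and -0.24 where they were 0.64, 0.23 and 0.22 with ATV alone. The endoplasmic reticulum chaperones were at 0.17 where they were at -0.08. YAP and TAZ targets and interferon-stimulated genes lay on the same side in both MDA-MB468 comparisons. In HCC70 their medians were -0.09 and 0.05 with ATV alone, with 6 of 11 below 0 and 10 of 15 above 0. With ATV added to XY018 in HCC70 the medians were -0.37 and -0.27. In MDA-MB468, YAP and TAZ targets were lower in 6 of 14 cases when ATV was added to XY018, with a median of -0.42, among them CCN2 at 4.94 and 0.53 FPKM (-3.0). ANKRD1, at 0.85 and 0.13 FPKM, was under 1 FPKM in both libraries and not counted. IGFBP5 was at 35.9 and 6.93 FPKM (-2.36). MYLIP was at 9.60 and 5.82 FPKM (-0.71) and ABCG1 at 4.21 and 2.34 FPKM (-0.82). Interferon-stimulated genes had a median of 0.35, with 4 of 12 higher. Genes without a call under ATV alone were called on XY018: RHOB was at 10.2 and 69.1 FPKM (2.75), KLF2 at 1.18 and 8.12 FPKM (2.68), and 9 of 14 NF-κB targets and chemokines were higher with a median of 0.66 where the median for ATV alone was 0.09. Over all genes, 23 of 147 higher genes were also higher on XY018 and 21 were lower, and 16 of 67 lower genes were also lower and 7 were higher. These counts and those of the lists on XY018 in MDA-MB468 stand beside 2.1% of all genes higher and 1.76% lower in that pair.

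**Figure D5:**
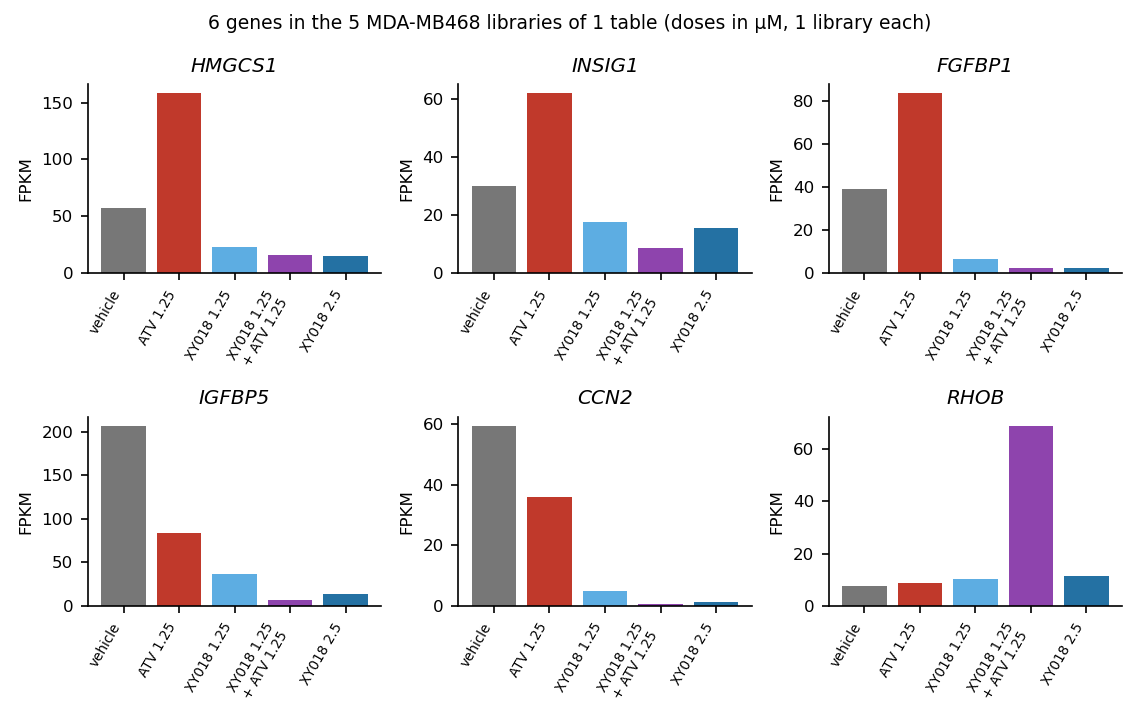
FPKM of 6 genes in the 5 MDA-MB468 libraries of the table, 1 library per bar, with doses in μM. HMGCS1, INSIG1 and FGFBP1 are highest with ATV alone, IGFBP5 and CCN2 are highest in vehicle, and RHOB is highest with both compounds at 69.1 FPKM.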

How the data were processed

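RNA-seq libraries were made by the study with the TruSeq kit and sequenced on a HiSeq instrument. Per the submitters' notes and the study's methods, the authors used BWA, Bowtie and Cufflinks with GRCh37 (hg19), versions not given in the sources used here. The deposited values are FPKM, which the authors normalized within each table. The headers name no unit, and FPKM was inferred from the methods and the values. The 2 tables used were never mixed. Entrez IDs were matched to RefSeq symbols for 18178 of 18217 genes.

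Log2 ratios were computed with a pseudocount of 0.1 FPKM for genes that reached 1 FPKM in either library, and genes past 1.5-fold were counted without a test. Ratios on this scale understate changes of low genes. Depth was estimated from the spacing of low FPKM values over 7 offsets to transcript length, and 274 genes without a length have no interval. Intervals are exact Clopper-Pearson at the 95% level. The calculation was tested on simulated data. Promoters are RefSeq, GRCh38.p14. No fold change or p-value of the authors was used, and the GSK805 table was not used here.

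Members, the 25 gene lists and the thresholds were chosen with earlier results of these data known. Genes were named by rule: all 21 cholesterol-biosynthesis genes, of each other list up to 5 members past 1.5-fold or else the one with the largest absolute ratio, the 15 highest and 15 lowest ratios at 5 FPKM or above, and 16 single genes. Some of these genes and 1 list are not reported here. Some others are named after their values were seen. Alternatives were pseudocounts of 1 and 0.01, no filter, a filter at 5 FPKM, a 2-fold threshold, the median ratio set to 0 and equal summed FPKM. Scripts ran in Python 3.11.15 with scipy 1.17.1, pandas 2.3.3 and numpy 2.4.6, and figures were drawn with matplotlib 3.10.9.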

Additional observations from a re-analysis of the deposited data

Results flagged for a closer look

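For 13 of the named genes reported here, the ratio of ATV added to XY018 passed 1.5-fold in the direction opposite to that of ATV alone in MDA-MB468. Each of the 4 libraries behind such a pair of ratios is single, and these differences were not tested. The sterol and isoprenoid enzymes among them, all higher with ATV alone, had log2 ratios on XY018 of -0.59 for TM7SF2, -0.63 for IDI1, -0.66 for MSMO1, -0.73 for EBP, -0.89 for MVK and DHCR7 and -0.90 for SQLE. Of the other SREBP-related genes, ACSS2 was at -0.62, ELOVL6 at -0.95 and INSIG1 at -1.0. LIPG, endothelial lipase, was at -0.68 and FGFBP1 at -1.41. DUSP1 went the other way, lower with ATV alone and at 0.72 when ATV was added to XY018. Between the cell lines, LBHD1 alone passed 1.5-fold in opposite directions, with a log2 ratio of -0.63 in HCC70, where it stood at 2.24 and 1.41 FPKM. This difference was not tested either. Some other named genes differed in sign without passing 1.5-fold in HCC70. Among them, IFIT2, higher in MDA-MB468, was at -0.29 in HCC70 (interval -0.51 to -0.08).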

How the results depend on the processing

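No named gene turned direction in the alternatives run, but most of them could not have shown a turn. A pseudocount, a filter or a threshold cannot reverse the sign of a ratio. The median ratio set to 0 and equal summed FPKM could, yet they shifted the ratios of ATV in MDA-MB468 by only 0.008 and 0.005. A pseudocount of 0.01, a median ratio set to 0 (a shift of 0.01) and equal summed FPKM left each count within 1.5 times its value. Counts moved with the rest, given as higher and lower. With a pseudocount of 1 they were 76 and 31 for ATV in MDA-MB468, 106 and 57 in HCC70, and 139 and 114 for ATV added to XY018. Without a filter they were 630 and 559, 957 and 766, and 920 and 635. At 5 FPKM they were 58 and 21, 90 and 24, and 110 and 85. At 2-fold they were 40 and 15, 53 and 34, and 64 and 46, with 5 cholesterol-biosynthesis genes higher in MDA-MB468, 0 in HCC70 and 0 lower on XY018. The pseudocount of 1 took ADM, DUSP1, IFIT2, NSDHL and STAC2 below the threshold. No paired analysis was possible because each condition has 1 library and the labels give no replicate numbers. No library could be left out for the same reason.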

Other observations

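Of the 33 genes higher with ATV at 20 FPKM or above, 9 lay in none of the lists, and they are given here after their values were seen. Besides FGFBP1 these were the phospholipase PLCG2 (11.6 FPKM in vehicle and 22.04 FPKM with ATV), the tubulin TUBA1A (13.5 and 25.4 FPKM), the acute phase inhibitor SERPINA3 (36.5 and 68.3 FPKM), the membrane glycoprotein GPNMB (33.0 and 59.8 FPKM), the chitinase-like CHI3L2 (12.4 and 21.4 FPKM), PCYT2 of phosphatidylethanolamine synthesis (21.2 and 35.5 FPKM), the defensin DEFB1 (19.4 and 31.1 FPKM) and MPC1, a subunit of the mitochondrial pyruvate carrier (18.5 and 28.2 FPKM). TUBA1A has close paralogues that can share its reads. When ATV was added to XY018, SERPINA3 (log2 ratio 0.56), TUBA1A (0.58) and CHI3L2 (0.65) had ratios above 0, PLCG2 (0.10) and GPNMB (-0.08) were near 0, and PCYT2 was at -0.54. Of the 8 genes lower at this level, STEAP4, a metalloreductase, was at 29.0 and 18.9 FPKM and S100A8, a calcium-binding protein of the S100 family, at 81.8 and 54.2 FPKM.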
